A study of Mus musculus with 12 samples.

Results

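Muscle progenitors obtained from teratomas were set against the muscle progenitors of midgestation embryos. The comparison took the 3 teratoma and the 3 embryo libraries, 6 of the 12 RNA-seq libraries in the series, and every gene that reached 1 FPKM in 3 or more of the 12. FPKM counts fragments per length of transcript and per mapped fragments of the library, so levels can be compared between genes. The teratoma libraries came from 3-week-old teratomas, tumours of mixed tissues that pluripotent stem cells form in a host animal. Neither the stem cell line nor the host is named in the labels. The embryo libraries came from whole embryos at E14.5, so progenitors of head, trunk and limb muscle were collected together. Both groups, like the other libraries, carry the strain label 129P2/OlaHsd, and no allele, transgene or treatment is given for either. All cells were released with collagenase II and dispase and sorted as CD31- CD45- α7-integrin+ VCAM+, which keeps cells with the muscle adhesion receptor α7-integrin and the adhesion molecule VCAM and removes endothelial cells (CD31) and leukocytes (CD45). The other 6 libraries are given side by side where they help to place a level. They came from tibialis anterior muscle 1 month after transplantation of teratoma-derived cells and from hindlimbs of 8-week-old males.

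Skeletal muscle of the trunk and limbs arises from Pax3 and Pax7 expressing progenitors of the somites. These cells divide, switch on the basic helix-loop-helix factors Myf5 and MyoD, leave the cell cycle under myogenin and fuse into multinucleate fibres that assemble sarcomeres. Fetal progenitors proliferate and build the muscle mass, whereas some Pax7 positive cells settle under the fibre's basement membrane as quiescent satellite cells, the stem cells of adult muscle. Hox genes record where along the body axis such a cell was formed, and imprinted genes, expressed from 1 parental copy, are active in fetal growth.

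Depth could not be read from FPKM values, and the design text calls the libraries biological replicates without stating that each had its own animal. The p-values therefore cover only the variation among these libraries. Between 10509 and 12000 genes reached 1 FPKM in the 6 libraries. Small and ribosomal RNA took 39.2% to 97.6% of the FPKM sum, with the highest shares in the library numbered 3 of each group. Embryo replicate 2 stood apart, with 74 genes at 0 that were clearly present (5 FPKM or above) in embryo replicates 1 and 3. The other 5 libraries had 6 to 24 genes of that kind. Correlations across genes averaged 0.909 within teratoma, 0.882 within embryo and 0.785 between them. Because cells were profiled in bulk, fewer cells of a type and less RNA per cell cannot be told apart in any difference below.

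Of 12699 genes tested, 3308 differed at an adjusted p under 0.05, which is 26.0% of them. In the teratoma libraries 1965 were higher (15.5%) and 1343 were lower (10.6%), and 1454 of the first and 776 of the second differed by at least 1 on the log2 scale. The shares of 15.5% and 10.6% are the background for each list count below. The 3 libraries of each group did not overlap for 37.4% of the genes. A gene high in 1 group alone could meet the filter, so counts in lists of low genes lean towards that group. Differences, given with their standard error after ±, are teratoma minus embryo on log2(FPKM + 1), a scale that understates those of low genes. The 3 values of a group, sums included, stand in the order of replicates 1, 2 and 3. The median over all genes was 0.01, and higher genes made up 59.4% of those called. Under quantile normalization, which moved the median to -0.10, the split was 1772 higher and 1800 lower, or 49.61% higher. Where a list had only 1 or 2 called genes in a direction, some of these counts fell to 0 or 1 in an alternative.

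**Figure D1:**
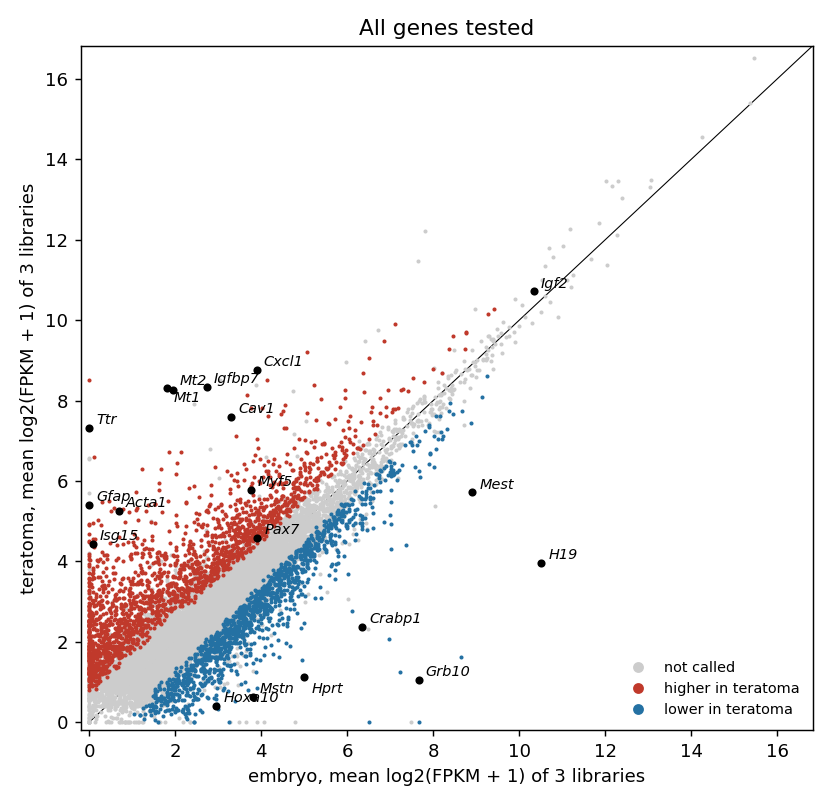
Mean log2(FPKM + 1) of the 3 teratoma libraries (vertical axis) against that of the 3 embryo libraries (horizontal axis), 1 point per gene tested, with red for the 1965 genes called higher, blue for the 1343 called lower and grey for the rest. Grb10 and H19 lie far below the diagonal of equal level, while Ttr and Gfap lie on the left edge because they were listed at 0 in all 3 embryo libraries.

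The 15 genes with the largest gains, among annotated genes whose groups did not overlap and whose teratoma mean was at least 5 FPKM, are given here or with the lists they belong to. Il6, the cytokine interleukin 6, had 35.4, 42.9 and 55.4 FPKM in teratoma and 0.829, 0 and 0 in embryo. Cxcl1, a chemokine that attracts neutrophils, had 458, 395 and 459 FPKM in teratoma and 23.96, 10.9 and 10.02 in embryo, and Serpina3n, a secreted protease inhibitor, 36.2, 65.9 and 35.9 FPKM in teratoma and 0.343, 0 and 0.903 in embryo. As the choice of genes required, all 3 were higher in each teratoma library than in any embryo library. Their log2 differences were 5.20, 4.88 and 5.04 (adjusted p = 8.11e-07, 1.94e-06 and 6.37e-07). Srxn1, which repairs oxidized peroxiredoxins, had 102, 73.7 and 61.2 FPKM in teratoma and 2.49, 0.302 and 1.88 in embryo, a log2 difference of 5.05 ± 0.40 (adjusted p = 6.27e-06). Nupr1, a stress-induced nuclear protein, had 33.3, 55.0 and 32.0 FPKM in teratoma and 2.38, 0 and 0 in embryo, a log2 difference of 4.73 ± 0.45 (adjusted p = 1.91e-05). The nuclear noncoding RNA Neat1 had 122, 117 and 81.6 FPKM in teratoma and 5.39, 0.434 and 4.13 in embryo, a log2 difference of 4.88 ± 0.43 (adjusted p = 1.33e-05). Each of these 3 genes was, again by the choice, higher in all teratoma libraries than in any embryo library. Lgals3, which encodes the lectin galectin 3, had 34.6, 34.2 and 26.6 FPKM in teratoma and 0.525, 0 and 0 in embryo, a log2 difference of 4.82 ± 0.23 (adjusted p = 2.22e-07). Cym, which encodes the stomach protease chymosin, had 61.1, 23.2 and 17.4 FPKM in the teratoma libraries and was listed at 0 in the embryo libraries (adjusted p = 4.05e-06). Cbr2, a carbonyl reductase, had 42.5, 53.8 and 11.6 FPKM in teratoma and 0.190, 0 and 0 in embryo, a log2 difference of 4.88 ± 0.44 (adjusted p = 1.38e-05).

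The 15 genes with the largest losses were also chosen among genes whose groups did not overlap, with an embryo mean of at least 5 FPKM. They included 4 globins, given with the other cell types. Crabp1, which binds retinoic acid in the cytoplasm, had 0.436, 5.78 and 13.2 FPKM in teratoma and 76.7, 74.2 and 91.7 in embryo, a log2 difference of -3.98 ± 0.62 (adjusted p = 6.81e-04). Tmem26, a membrane protein, had 3.46, 1.21 and 1.54 FPKM in teratoma and 29.8, 31.0 and 29.1 in embryo, a log2 difference of -3.40 ± 0.28 (adjusted p = 9.64e-06), and the transmembrane protein Tmeff2 had 0.559, 0.356 and 1.47 FPKM in teratoma and 13.97, 9.35 and 12.7 in embryo, a log2 difference of -2.89 ± 0.39 (adjusted p = 2.83e-04). Embryo libraries of these 3 genes lay close together and far above every teratoma library. Mstn, which encodes myostatin, the TGF-beta family ligand that restrains muscle growth, had 0.826, 0.705 and 0.197 FPKM in teratoma and 12.01, 29.5 and 5.87 in embryo, a log2 difference of -3.17 ± 0.43 (adjusted p = 2.90e-04). Pappa2, a protease that cleaves IGF-binding proteins, had 0.808, 0.498 and 1.14 FPKM in teratoma and 14.9, 13.3 and 13.96 in embryo, a log2 difference of -3.06 ± 0.25 (adjusted p = 7.45e-06). Slc7a10, an amino acid transporter, was listed at 0 in all 3 teratoma libraries and had 6.73, 18.2 and 4.95 FPKM in the embryo libraries (adjusted p = 5.16e-05).

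Of the 33 myogenic regulators tested, 7 were higher (21.2%) and 8 lower (24.2%), against 15.5% and 10.6% over all genes, with a median of 0.02. Pax7, the factor that marks satellite cells and their precursors (chromosome 4 from 139737062 to 139833528, mm10), had 25.5, 23.5 and 20.1 FPKM in teratoma and 14.7, 14.3 and 13.1 in embryo. Myf5, the earliest of the myogenic basic helix-loop-helix factors (chromosome 10 from 107482908 to 107486134), had 71.5, 49.9 and 43.9 FPKM in teratoma and 12.9, 10.04 and 15.02 in embryo. Myod1, the gene of the commitment factor MyoD (chromosome 7 from 46376474 to 46379099), had 62.2, 37.1 and 51.9 FPKM in teratoma and 23.6, 19.8 and 11.2 in embryo. For each of the 3 genes the teratoma libraries lay above the embryo libraries, by 0.67, 2.02 and 1.45 on the log2 scale (adjusted p = 0.0225, 3.32e-05 and 0.00328). The call for Pax7 was lost in some leave-one-out fits (adjusted p 0.0675 without teratoma replicate 1, 0.0686 without teratoma replicate 2 and 0.0603 without embryo replicate 3). Myog, which encodes myogenin and accompanies differentiation, had 19.5, 30.1 and 39.6 FPKM in teratoma and 19.4, 33.2 and 10.1 in embryo, so the groups overlapped (log2 difference 0.58 ± 0.38, adjusted p = 0.297). Pax3 had 0.386, 0.323 and 0.826 FPKM in teratoma and 1.24, 2.81 and 1.07 in embryo, low in both groups and lower in every teratoma library, without passing the test (log2 difference -0.80 ± 0.29, adjusted p = 0.0616). It passed in 2 alternatives (adjusted p 0.0465 without embryo replicate 3 and 0.0333 under quantile normalization). Myf6, the regulator of late fibres, had 1.36, 0.113 and 3.10 FPKM in teratoma and was listed at 0 in embryo, with an adjusted p of 0.0909 (0.0217 without teratoma replicate 2).

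Six2, Eya3 and their relatives, which act upstream of Myf5 and MyoD, were lower in 2 of 9 cases and higher in 0. Six2, a factor of connective tissue and kidney progenitors as well, had 2.76, 1.86 and 2.05 FPKM in teratoma and 14.2, 21.5 and 12.6 in embryo. It was lower in every teratoma library (log2 difference -2.38 ± 0.25, adjusted p = 3.63e-05). Eya3 was also lower (log2 difference -0.88 ± 0.28, adjusted p = 0.0356), a call lost without some libraries (adjusted p 0.0975 without teratoma replicate 2, 0.102 without teratoma replicate 3, 0.0575 without embryo replicate 1 and 0.120 without embryo replicate 3), with only the 2 groups in the fit (adjusted p = 0.0715) and with a pseudocount of 0.1 (adjusted p = 0.0569). Eya1 did not pass the test in the full fit (adjusted p = 0.490, and 0.00710 without embryo replicate 2). Six4, Six5, Eya2, Eya4 and the transcriptional cofactor Dach1 did not pass the test.

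Nuclear factor I proteins take part in the switch from embryonic to fetal muscle genes. Nfix, the driver of that switch, had 59.9, 61.2 and 62.9 FPKM in teratoma and 33.9, 27.9 and 25.5 in embryo, a log2 difference of 1.06 ± 0.15 (adjusted p = 3.50e-04). Nfic had 34.0, 36.9 and 36.5 FPKM in teratoma and 18.2, 10.8 and 15.4 in embryo, a log2 difference of 1.25 ± 0.18 (adjusted p = 3.64e-04), whereas Nfib had 41.2, 40.9 and 44.1 FPKM in teratoma and 58.4, 61.1 and 63.4 in embryo, a log2 difference of -0.53 ± 0.12 (adjusted p = 0.00704). Nfix and Nfic were thus higher, and Nfib lower, in all 3 teratoma libraries. Nfia, at 27.5, 24.5 and 24.4 against 23.1, 26.5 and 26.3 FPKM, did not pass the test. Of the MEF2 factors, which cooperate with the myogenic factors on muscle promoters, Mef2d was higher at 46.3, 36.1 and 41.2 against 23.6, 21.7 and 19.4 FPKM (log2 difference 0.90 ± 0.17, adjusted p = 0.00223), and Mef2c did not pass the test, nor did Mef2a (adjusted p = 0.173, and 0.0325 without teratoma replicate 2).

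Among the partners and inhibitors of the basic helix-loop-helix factors, 5 of 11 were lower and 1 higher. Bhlhe40, a repressor linked to the circadian clock and to hypoxia, had 85.5, 120.4 and 96.4 FPKM in teratoma and 11.6, 10.99 and 19.6 in embryo, a log2 difference of 2.79 ± 0.20 (adjusted p = 3.86e-06). The inhibitor Id2 had 34.1, 28.02 and 33.3 FPKM in teratoma and 52.5, 54.3 and 94.9 in embryo, a log2 difference of -1.01 ± 0.21 (adjusted p = 0.00445), and the E protein partner Tcf3 had 18.997, 25.5 and 28.9 FPKM in teratoma and 47.4, 46.0 and 62.5 in embryo, a log2 difference of -1.06 ± 0.20 (adjusted p = 0.00210). Both were lower in every teratoma library. The mesenchymal factors Twist1 and Twist2, which oppose MyoD, were lower, with log2 differences of -1.53 and -2.16 (adjusted p = 0.0227 and 0.0124), and so was Id1 (log2 difference -0.93 ± 0.24, adjusted p = 0.0151). Tcf4, Id3, Msc and Bhlhe41 did not pass the test, nor did Tcf12 (adjusted p = 0.196, and 0.0439 without teratoma replicate 1). The calls for Twist1 (adjusted p 0.0926 without teratoma replicate 2, 0.0681 without embryo replicate 1 and 0.0702 without embryo replicate 3) and Id1 (adjusted p 0.0600 without teratoma replicate 2, 0.0518 without embryo replicate 1 and 0.0565 without embryo replicate 3) were lost in single leave-one-out fits, and those for Twist1 and Twist2 with a pseudocount of 0.1 (adjusted p = 0.0760 and 0.218). The count of lower regulators fell from 8 to 5 without teratoma replicate 2, without embryo replicate 1 and with a pseudocount of 0.1. Twist2 is also a fibroblast marker, and the marker lists of other cell types are given below.

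**Figure D2:**
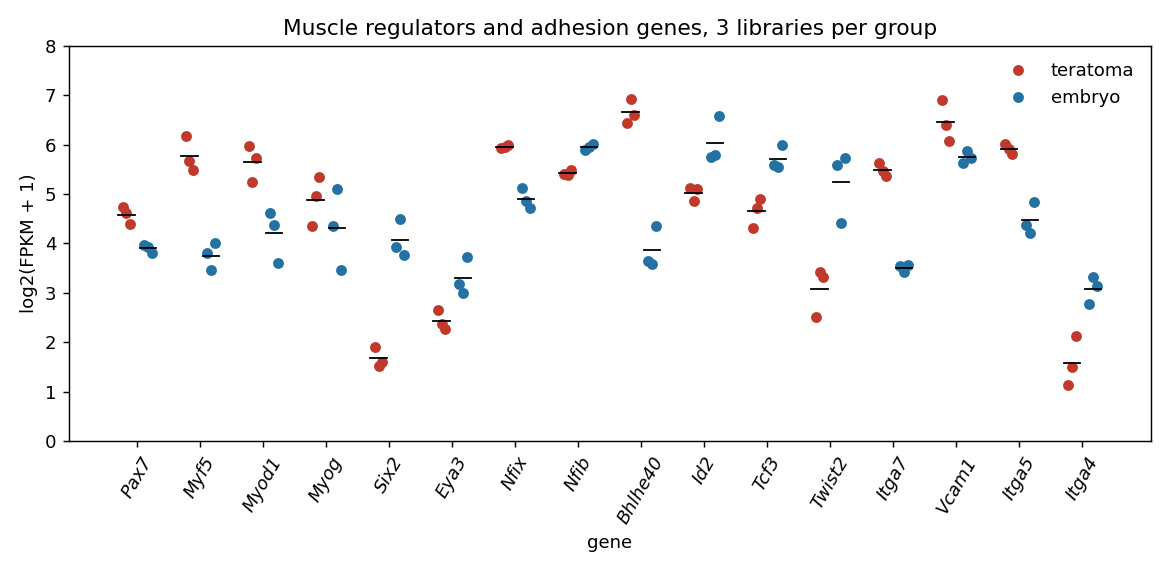
Log2(FPKM + 1) of 12 muscle regulators and 4 adhesion genes (horizontal axis) in the 3 teratoma (red) and 3 embryo (blue) libraries, 1 point per library with a bar at the group mean. Myf5, Myod1, Nfix, Bhlhe40 and Itga7 show 2 separate groups with teratoma above, Six2, Tcf3, Twist2 and Itga4 2 separate groups with embryo above, and the points of Myog overlap.

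The sort antigens checked the label of the cells. Itga7, which encodes α7-integrin, had 48.2, 43.3 and 40.2 FPKM in teratoma and 10.6, 9.73 and 10.8 in embryo, a log2 difference of 1.98 ± 0.17 (adjusted p = 1.07e-05). Vcam1 had 119.7, 82.8 and 66.7 FPKM in teratoma and 48.8, 57.7 and 52.4 in embryo, a log2 difference of 0.71 ± 0.21 (adjusted p = 0.0274), and that call was lost without some libraries (adjusted p 0.0919 without teratoma replicate 1, 0.0595 without teratoma replicate 2, 0.0749 without embryo replicate 1 and 0.0607 without embryo replicate 3) and with only the 2 groups in the fit (adjusted p = 0.0696). Pecam1, which encodes the excluded antigen CD31, had 9.62, 5.49 and 6.13 FPKM in teratoma and 0.638, 8.31 and 2.10 in embryo and overlapped (log2 difference 1.13 ± 0.51, adjusted p = 0.125; adjusted p 0.00464 without embryo replicate 2). Ptprc, which encodes the excluded antigen CD45, had 0.476, 0.801 and 1.44 FPKM in teratoma and 0.0393, 0 and 0 in embryo and did not reach the level set for testing. Both groups thus carried the sorted antigens' transcripts, and Ptprc was near 0 in embryo and low in teratoma. Pecam1, however, was present at 5.49 FPKM or above in every teratoma library and reached 8.31 FPKM in embryo replicate 2.

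Integrins link the cell to its matrix, and of 19 tested members of the list, sort antigens included, 7 were higher and 2 lower. Itga5, the fibronectin receptor chain, had 64.0, 59.0 and 55.5 FPKM in teratoma and 19.6, 17.6 and 27.7 in embryo, a log2 difference of 1.44 ± 0.23 (adjusted p = 7.28e-04). Itgav, an alpha chain of several vitronectin and TGF-beta activating receptors, had 36.4, 33.9 and 27.5 FPKM in teratoma and 15.4, 15.5 and 24.3 in embryo, a log2 difference of 0.81 ± 0.19 (adjusted p = 0.00851). Itga3 was at 5.79, 6.96 and 4.01 against 1.13, 0 and 1.38 FPKM (log2 difference 1.91 ± 0.32, adjusted p = 0.00117), Itgb4 at 3.26, 6.04 and 2.74 against 0, 0 and 1.13 FPKM (log2 difference 1.91 ± 0.35, adjusted p = 0.00203) and Itgb6 at 1.31, 1.47 and 1.30 against 0.0515, 0.0420 and 0.0656 FPKM (log2 difference 1.16 ± 0.21, adjusted p = 0.00183). These 3 chains, best known from epithelia, were low in level and lower still in embryo, and the call for Itgb6 was lost under quantile normalization (adjusted p = 0.116). Itga4, the alpha chain of the receptor for VCAM, was instead lower in teratoma at 1.21, 1.82 and 3.34 against 5.80, 8.99 and 7.78 FPKM (log2 difference -1.49 ± 0.29, adjusted p = 0.00262), and so was Itga9 at 2.44, 2.91 and 1.97 against 7.71, 4.85 and 6.52 FPKM (log2 difference -1.09 ± 0.24, adjusted p = 0.00579). With genes restricted to a mean of 5 FPKM, 4 of 8 list members were higher and 0 lower.

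Genes of the satellite cell surface and of quiescence were higher in 19 of 32 cases and lower in 4, with a median of 1.10. Calcr, the calcitonin receptor that holds satellite cells in quiescence, had 11.6, 8.19 and 7.54 FPKM in teratoma and 0.923, 0 and 0 in embryo, a log2 difference of 3.000 ± 0.38 (adjusted p = 1.68e-04). Cxcr4, the chemokine receptor used in sorting such cells, had 74.8, 49.3 and 61.6 FPKM in teratoma and 11.2, 36.2 and 7.58 in embryo, a log2 difference of 1.98 ± 0.43 (adjusted p = 0.00524). Met, the receptor for hepatocyte growth factor, had 49.0, 26.4 and 21.3 FPKM in teratoma and 6.53, 7.50 and 11.2 in embryo, a log2 difference of 1.76 ± 0.29 (adjusted p = 9.35e-04). All 3 receptors were higher in every teratoma library than in any embryo library. Cdh15, which encodes M-cadherin, had 37.6, 45.2 and 51.1 FPKM in teratoma and 22.9, 21.5 and 16.1 in embryo (log2 difference 1.11 ± 0.21, adjusted p = 0.00207), and Cd34 had 60.2, 57.8 and 49.2 FPKM in teratoma and 33.4, 21.1 and 24.2 in embryo (log2 difference 1.08 ± 0.22, adjusted p = 0.00412). Among quiescence-associated genes, Apoe had 204, 262 and 181 FPKM in teratoma and 18.6, 20.4 and 26.6 in embryo, a log2 difference of 3.24 ± 0.24 (adjusted p = 4.05e-06). Gas6, a ligand of TAM receptors, had 31.3, 36.9 and 27.9 FPKM in teratoma and 8.56, 5.85 and 6.67 in embryo, a log2 difference of 2.05 ± 0.19 (adjusted p = 1.49e-05). Foxo3, a factor of stem cell maintenance, had 23.5, 28.1 and 21.1 FPKM in teratoma and 9.51, 12.7 and 12.5 in embryo, a log2 difference of 1.01 ± 0.17 (adjusted p = 9.44e-04). Their libraries did not overlap between groups. Dag1, which encodes dystroglycan, was higher as well (log2 difference 1.16 ± 0.22, adjusted p = 0.00209). Gas1 was lower at 24.4, 36.2 and 30.9 against 50.5, 47.0 and 59.4 FPKM (log2 difference -0.77 ± 0.17, adjusted p = 0.00636). The other lower genes among the quiescence-associated ones were Mstn, given above (log2 difference -3.17 ± 0.43, adjusted p = 2.90e-04), and Cdkn1c, given below with the kinase inhibitors (adjusted p = 0.0229). The count of lower members of the list fell from 4 to 2 without teratoma replicate 2 or without embryo replicate 1.

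Transcripts of the contractile apparatus were higher in 31 of 42 tested members and lower in 0, with a median of 1.38. Of 56 members with values, 37 reached 1 FPKM in all 3 teratoma libraries and 13 in all 3 embryo libraries. Members could thus be tested through the teratoma libraries alone, which favours a count of higher genes. Acta1, the actin of skeletal muscle fibres, had 23.8, 61.5 and 35.5 FPKM in teratoma and 0.478, 0.365 and 1.09 in embryo, a log2 difference of 4.57 ± 0.46 (adjusted p = 2.98e-05). The fast light chain gene Mylpf had 15.2, 35.04 and 28.4 FPKM in teratoma and 1.47, 0.122 and 2.10 in embryo, a log2 difference of 3.66 ± 0.40 (adjusted p = 5.25e-05). Tnnt3, fast troponin T, had 5.45, 7.54 and 7.84 FPKM in teratoma and 0.231, 0.176 and 0.0337 in embryo, a log2 difference of 2.78 ± 0.28 (adjusted p = 3.15e-05). None of the 3 genes reached 3 FPKM in an embryo library, and none was below 5 FPKM in a teratoma library. Of 7 embryonic and cardiac-type isoforms 4 were higher and 0 lower. Myl4, an embryonic light chain, had 7.93, 13.9 and 10.2 FPKM in teratoma and 1.01, 1.33 and 2.49 in embryo, a log2 difference of 2.17 ± 0.37 (adjusted p = 0.00116). Myh3, embryonic myosin heavy chain, had 3.11, 5.89 and 3.52 FPKM in teratoma and 0.311, 0.605 and 0.670 in embryo, a log2 difference of 1.73 ± 0.27 (adjusted p = 6.72e-04). Actc1, cardiac alpha actin, which is also the main sarcomeric actin of the embryo, had 57.8, 48.2 and 78.6 FPKM in teratoma and 98.9, 132 and 77.4 in embryo and did not pass the test (log2 difference -0.72 ± 0.31, adjusted p = 0.109).

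Structural and calcium-handling members followed. Des, the intermediate filament desmin, had 62.4, 79.8 and 71.1 FPKM in teratoma and 16.9, 25.5 and 10.98 in embryo, a log2 difference of 2.01 ± 0.25 (adjusted p = 1.33e-04). Cryab, a small heat shock protein bound to desmin, had 27.8, 35.6 and 38.05 FPKM in teratoma and 11.5, 10.9 and 7.16 in embryo, a log2 difference of 1.69 ± 0.19 (adjusted p = 7.34e-05). Atp2a1, the calcium pump of fast fibres, had 7.72, 13.98 and 8.74 FPKM in teratoma and 0.667, 1.81 and 0 in embryo, a log2 difference of 2.70 ± 0.34 (adjusted p = 1.66e-04). Teratoma libraries were above embryo libraries for all 3 genes. Cacng1, a subunit of the voltage sensor, had 4.74, 12.3 and 23.2 FPKM in teratoma and 0.309, 0 and 0.163 in embryo, a log2 difference of 3.42 ± 0.42 (adjusted p = 1.30e-04). Ckm, muscle creatine kinase, had 3.48, 8.05 and 5.70 FPKM in teratoma and was listed at 0 in embryo (adjusted p = 7.45e-04). Adult heavy chains Myh2, Myh4 and Myh7 did not reach the level for testing and stayed under 1 FPKM in all 6 libraries. The count of higher members was 12 of 16 among genes with a mean of at least 5 FPKM.

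Genes of cell fusion and of the neuromuscular junction were higher in 12 of 17 and lower in 1. Of 20 listed, 16 reached 1 FPKM in all 3 teratoma libraries and 7 in all 3 embryo libraries, so the filter could favour higher genes here too. Musk, the receptor kinase that assembles the synapse, had 7.02, 7.10 and 5.52 FPKM in teratoma and 0.814, 0 and 0 in embryo, a log2 difference of 2.62 ± 0.30 (adjusted p = 7.98e-05). Chrnb1, the beta subunit of the acetylcholine receptor, had 29.7, 23.9 and 20.2 FPKM in teratoma and 6.04, 8.46 and 5.67 in embryo, a log2 difference of 1.73 ± 0.20 (adjusted p = 7.64e-05). Dysf, the membrane repair protein dysferlin, had 2.03, 3.94 and 4.30 FPKM in teratoma and 0.279, 0 and 0.980 in embryo, a log2 difference of 1.66 ± 0.33 (adjusted p = 0.00332). In each of these genes the lowest teratoma library exceeded the highest embryo library. Rapsn, which anchors the receptor, was higher as well, at 2.96, 9.69 and 8.004 against 2.51, 0 and 0.317 FPKM (log2 difference 2.12 ± 0.46, adjusted p = 0.00520). Jam3, an adhesion molecule of early fusion, was lower at 16.5, 17.9 and 16.6 against 26.2, 34.9 and 27.3 FPKM (log2 difference -0.75 ± 0.17, adjusted p = 0.00775). Of genes with a mean of at least 5 FPKM, 6 of 8 list members were higher.

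Cell cycle transcripts were lower or not called. Of 41 S phase genes tested 31 were lower and 0 higher, with a median of -1.22, and of 44 G2 and M phase genes 38 were lower and 0 higher, with a median of -1.36. Cdc6, which loads the replicative helicase, had 2.202, 1.60 and 2.74 FPKM in teratoma and 10.95, 13.7 and 10.04 in embryo, a log2 difference of -1.99 ± 0.33 (adjusted p = 9.55e-04). Orc1, a subunit of the origin recognition complex, had 1.64, 0.348 and 0.899 FPKM in teratoma and 4.19, 6.10 and 5.22 in embryo, a log2 difference of -1.69 ± 0.27 (adjusted p = 8.45e-04). Tyms, thymidylate synthase, had 8.38, 3.90 and 5.04 FPKM in teratoma and 23.1, 22.04 and 18.05 in embryo, a log2 difference of -1.75 ± 0.29 (adjusted p = 9.88e-04). No teratoma library reached the lowest embryo library for these genes. Ccnb1, cyclin B1, had 8.08, 6.53 and 15.2 FPKM in teratoma and 33.1, 59.5 and 33.0 in embryo, a log2 difference of -1.99 ± 0.46 (adjusted p = 0.00720). Ccna2, cyclin A2, had 14.9, 14.8 and 13.03 FPKM in teratoma and 47.6, 67.1 and 45.5 in embryo, a log2 difference of -1.82 ± 0.33 (adjusted p = 0.00178). Aurka, the spindle kinase, had 3.505, 2.39 and 4.46 FPKM in teratoma and 14.3, 11.1 and 19.2 in embryo, a log2 difference of -1.83 ± 0.30 (adjusted p = 9.12e-04). These 3 genes of mitotic entry were again lower in every teratoma library. Bub1b of the spindle checkpoint had 4.90, 4.31 and 6.12 FPKM in teratoma and 16.6, 26.3 and 22.5 in embryo, a log2 difference of -1.89 ± 0.29 (adjusted p = 6.52e-04). Ube2c, the ubiquitin-conjugating enzyme of mitotic exit, had 37.8, 28.5 and 25.8 FPKM in teratoma and 96.4, 139 and 116 in embryo, a log2 difference of -1.90 ± 0.38 (adjusted p = 0.00334). Summed over the S phase list, the 3 teratoma libraries stood at 569, 414 and 461 FPKM and the embryo libraries at 1086, 1242 and 1100.4. The same sums were 114, 123 and 146 in the transplant libraries and 204, 202 and 202 in the adult libraries. For G2 and M phase the sums were 400.2, 312 and 386 in teratoma, 891, 1159 and 1023 in embryo, 41.6, 43.04 and 77.2 in transplant and 40.5, 36.1 and 21.3 in adult. With a pseudocount of 0.1 the counts of lower genes were 19 for S phase and 16 for G2 and M phase, and the adjusted p rose to 0.0731 for Cdc6 and 0.0820 for Ccnb1. Among genes with a mean of at least 5 FPKM, 20 of 26 G2 and M phase genes were lower.

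Many G2 and M phase promoters carry the cell cycle homology region, an element bound by the DREAM and MuvB complexes, and its letters TTTGAA were looked for on both strands. The window was the 250 bases before the RefSeq start of each gene (GRCm38.p6). Of 37 tested G2 and M phase genes with such a window, 13 held a match (35.1%), against 12.4% of the 8959 tested genes and 18.3% of all 27025 genes with a window. That share is a trait of the listed genes, not of the difference between teratoma and embryo. Cdk1, the kinase of mitotic entry, had 14.6, 15.1 and 14.4 FPKM in teratoma and 34.01, 42.5 and 36.6 in embryo, a log2 difference of -1.29 ± 0.25 (adjusted p = 0.00243), lower in every teratoma library, though the adjusted p was 0.120 with a pseudocount of 0.1. Its window (chr10:69352913-69353162, minus strand) is shown because it held 2 matches, in capitals, 71 to 66 and 15 to 10 bases before the start.
Cdk1: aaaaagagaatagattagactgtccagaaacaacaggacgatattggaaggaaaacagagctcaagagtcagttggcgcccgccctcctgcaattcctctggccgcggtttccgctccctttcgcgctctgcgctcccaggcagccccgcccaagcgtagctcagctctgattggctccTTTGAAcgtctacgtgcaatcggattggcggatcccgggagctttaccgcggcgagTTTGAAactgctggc

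Inhibitors of cyclin-dependent kinases, the brakes of the G1 phase, were higher in 3 of 7 cases and lower in 1. With the G1 cyclins and pocket proteins listed beside them, 4 of 15 were higher and 3 lower. Cdkn1a, which encodes the p53 target p21, had 83.4, 95.2 and 76.7 FPKM in teratoma and 8.51, 8.49 and 18.4 in embryo, a log2 difference of 2.83 ± 0.25 (adjusted p = 1.29e-05). Cdkn1b, which encodes p27, had 29.1, 24.3 and 31.0 FPKM in teratoma and 9.27, 4.33 and 16.7 in embryo, a log2 difference of 1.55 ± 0.34 (adjusted p = 0.00532). Cdkn2b had 4.34, 5.97 and 3.23 FPKM in teratoma and 0.376, 0 and 0 in embryo, a log2 difference of 2.28 ± 0.31 (adjusted p = 2.55e-04). The 3 inhibitors were higher in each teratoma library than in any embryo library. Cdkn1c, the imprinted inhibitor p57 of terminally arrested myoblasts, stood at far higher levels and moved the other way, at 316, 244 and 265 against 668, 604 and 446 FPKM (log2 difference -1.04 ± 0.30, adjusted p = 0.0229). Its call was lost in some leave-one-out fits (adjusted p 0.0792 without teratoma replicate 2, 0.0613 without teratoma replicate 3, 0.0726 without embryo replicate 1 and 0.0577 without embryo replicate 2), and 0 of the 15 were lower without teratoma replicate 2 or embryo replicate 1 and 1 without teratoma replicate 3. Replication histones, many of them near-identical copies that can share reads, were lower in 13 of 55 and higher in 0, a count that ranged down to 2 with a pseudocount of 0.1, to 8 without teratoma replicate 1 and to 7 without teratoma replicate 2 or without embryo replicate 1.

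Imprinted genes were lower in 13 of 34 tested cases and higher in 2, with a median of -0.31. Of the maternally expressed genes 6 of 12 were lower, and of the paternally expressed ones 7 of 22. Grb10, a maternally expressed adaptor that restrains insulin and IGF signalling (chromosome 11 from 11930508 to 12038683), had 1.30, 0.788 and 1.16 FPKM in teratoma and 196, 195 and 214 in embryo, a log2 difference of -6.61 ± 0.17 (adjusted p = 3.17e-10). H19, the maternally expressed noncoding RNA next to Igf2 (chromosome 7 from 142575529 to 142578143), had 15.004, 14.8 and 14.2 FPKM in teratoma and 1478, 1293 and 1628 in embryo, a log2 difference of -6.54 ± 0.14 (adjusted p = 9.35e-11). The embryo libraries agreed closely and lay far above the teratoma libraries for both genes. Mest, a paternally expressed gene of fetal mesoderm (chromosome 6 from 30723547 to 30748465), had 51.7, 40.6 and 65.0 FPKM in teratoma and 476, 407 and 572 in embryo, a log2 difference of -3.20 ± 0.34 (adjusted p = 4.89e-05). Plagl1, a paternally expressed zinc finger factor that is known to govern a network of imprinted growth genes, had 21.7, 16.9 and 18.4 FPKM in teratoma and 150.2, 119 and 118 in embryo, a log2 difference of -2.70 ± 0.24 (adjusted p = 1.33e-05). Magel2, a paternally expressed gene of the Prader-Willi region, had 0.206, 0.443 and 0.3001 FPKM in teratoma and 3.95, 3.23 and 4.02 in embryo, a log2 difference of -1.85 ± 0.21 (adjusted p = 6.53e-05). Plagl1 and Magel2 were lower in every teratoma library. Peg3, a paternally expressed regulator of muscle stem cells, had 81.6, 65.3 and 82.1 FPKM in teratoma and 141, 134 and 169 in embryo, a log2 difference of -0.95 ± 0.20 (adjusted p = 0.00408).

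Of the imprinted genes with high levels, Igf2, Meg3, Peg10 and Dlk1 did not pass the test in the full fit. Igf2, the paternally expressed growth factor beside H19, had 1786, 1606 and 1662 FPKM in teratoma and 1150.4, 1415 and 1323 in embryo (log2 difference 0.38 ± 0.19, adjusted p = 0.162). Meg3, the maternally expressed noncoding RNA of the Dlk1 cluster, had 277, 279.7 and 261 FPKM in teratoma and 290.0, 206 and 308 in embryo (log2 difference 0.05 ± 0.22, adjusted p = 0.900), and Peg10 had 134, 102 and 116 FPKM in teratoma and 112, 138 and 92.7 in embryo (log2 difference 0.05 ± 0.20, adjusted p = 0.885). Dlk1, the paternally expressed Notch-like ligand, was at 159.9, 132 and 154 against 304, 238 and 312 FPKM, below the embryo in each teratoma library, with an adjusted p of 0.0540 that passed the threshold in some leave-one-out fits (0.0233 without transplant replicate 1, 0.0332 without transplant replicate 2 and 0.0362 without adult replicate 3) and with only the 2 groups in the fit (0.0116). Sgce, which encodes epsilon-sarcoglycan, was the paternally expressed gene that was higher, at 32.0, 38.3 and 29.3 against 16.3, 4.75 and 9.998 FPKM (log2 difference 1.72 ± 0.34, adjusted p = 0.00292), and of the maternally expressed genes 1 was higher. In the adult libraries Grb10 was at 43.4, 38.9 and 46.0 FPKM and H19 at 6.30, 6.22 and 6.58, and in the transplant libraries Grb10 was at 0.234, 0.502 and 0.569 and H19 at 0.986, 1.09 and 1.44.

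In the IGF axis, which couples growth factors to muscle growth, 5 of 18 were higher and 5 lower. Both shares were 27.8%, against 15.5% higher and 10.6% lower over all genes. Igfbp7, a secreted protein related to IGF-binding proteins, had 281, 371 and 329.8 FPKM in teratoma and 17.04, 0 and 15.3 in embryo, a log2 difference of 5.62 ± 0.82 (adjusted p = 4.29e-04). Htra1, a protease that cleaves IGF-binding proteins, had 49.7, 38.2 and 36.6 FPKM in teratoma and 8.25, 7.29 and 6.79 in embryo, a log2 difference of 2.32 ± 0.24 (adjusted p = 3.56e-05). Irs2, an adaptor of the insulin and IGF receptors, had 50.0, 53.9 and 50.9 FPKM in teratoma and 30.7, 19.9 and 28.9 in embryo, a log2 difference of 0.96 ± 0.18 (adjusted p = 0.00193), while its relative Irs1 had 17.9, 13.3 and 10.3 FPKM in teratoma and 27.7, 25.7 and 30.5 in embryo, a log2 difference of -0.995 ± 0.20 (adjusted p = 0.00335). The groups did not overlap for any of these 4 genes. Igf2r, the imprinted receptor that removes IGF2, was lower at 76.2, 64.9 and 58.7 against 93.6, 102 and 124 FPKM (log2 difference -0.67 ± 0.15, adjusted p = 0.00616). The count of higher members was 3 without teratoma replicate 2 and 3 when only the 2 groups entered the fit. Of 7 oncofetal RNA-binding and chromatin genes, 4 were lower and 0 higher, against 10.6% of all genes. Igf2bp1, which stabilizes fetal messages, had 6.17, 3.36 and 4.13 FPKM in teratoma and 15.2, 20.7 and 23.7 in embryo, a log2 difference of -1.92 ± 0.26 (adjusted p = 2.77e-04). Igf2bp3 had 11.6, 3.98 and 6.14 FPKM in teratoma and 22.3, 27.3 and 29.5 in embryo, a log2 difference of -1.83 ± 0.34 (adjusted p = 0.00205). Hmga2, a chromatin protein of fetal stem cells, had 7.38, 7.10 and 7.16 FPKM in teratoma and 14.9, 18.2 and 41.8 in embryo, a log2 difference of -1.52 ± 0.40 (adjusted p = 0.0145), and an adjusted p of 0.0907 with a pseudocount of 0.1. These fetal genes were lower in each teratoma library, and so was Arid3b (log2 difference -1.12 ± 0.29, adjusted p = 0.0138). The other 3 tested members were not called. All 10 listed genes summed to 131, 52.2 and 60.3 FPKM in teratoma and 125, 126 and 165 in embryo. Teratoma replicate 1 was thus above embryo replicates 1 and 2 in this sum.

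Hox genes were lower in 18 of 26 tested members and higher in 0, with a median of -1.70. Of 39 Hox genes listed, 19 reached 1 FPKM in all 3 embryo libraries, 1 in teratoma, 3 in transplant and 3 in adult. Members could thus enter the test through the embryo libraries alone, which by itself favours a count of lower genes. By position, 8 of 10 anterior members (paralogs 1 to 4), 6 of 8 central members (paralogs 5 to 8) and 4 of 8 posterior members (paralogs 9 to 13) were lower. Hoxc4 had 0.152, 0.727 and 0.690 FPKM in teratoma and 5.13, 6.16 and 9.52 in embryo, a log2 difference of -2.37 ± 0.36 (adjusted p = 5.72e-04). Hoxc8 had 0.0992, 0.140 and 0.196 FPKM in teratoma and 3.41, 4.25 and 6.29 in embryo, a log2 difference of -2.27 ± 0.26 (adjusted p = 7.34e-05). Hoxa10, a gene of limb and lumbar position, had 0.374, 0 and 0.720 FPKM in teratoma and 5.63, 8.64 and 6.31 in embryo, a log2 difference of -2.54 ± 0.29 (adjusted p = 7.01e-05). No teratoma library reached the lowest embryo library for these 3 genes. Hoxb6 was at 0, 0 and 0.312 against 2.09, 4.28 and 5.64 FPKM (log2 difference -2.12 ± 0.34, adjusted p = 7.67e-04) and Hoxa9 at 0.0962, 0 and 0.453 against 2.68, 4.54 and 4.50 FPKM (log2 difference -2.05 ± 0.33, adjusted p = 8.70e-04). Hoxa3 was the tested gene with the highest teratoma level, at 3.46, 3.36 and 3.62 against 5.73, 11.3 and 6.399 FPKM, and did not pass the test (log2 difference -0.92 ± 0.40, adjusted p = 0.110). Levels were low throughout, and 0 Hox genes had a mean of at least 5 FPKM over the 12 libraries. The 39 Hox genes of the table summed to 22.1, 15.5 and 22.9 FPKM in teratoma, 101.1, 105 and 164 in embryo, 28.9, 20.9 and 30.5 in transplant and 18.1, 21.4 and 22.9 in adult. The embryo cells came from whole embryos, so no single axial level is given for them.

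**Figure D3:**
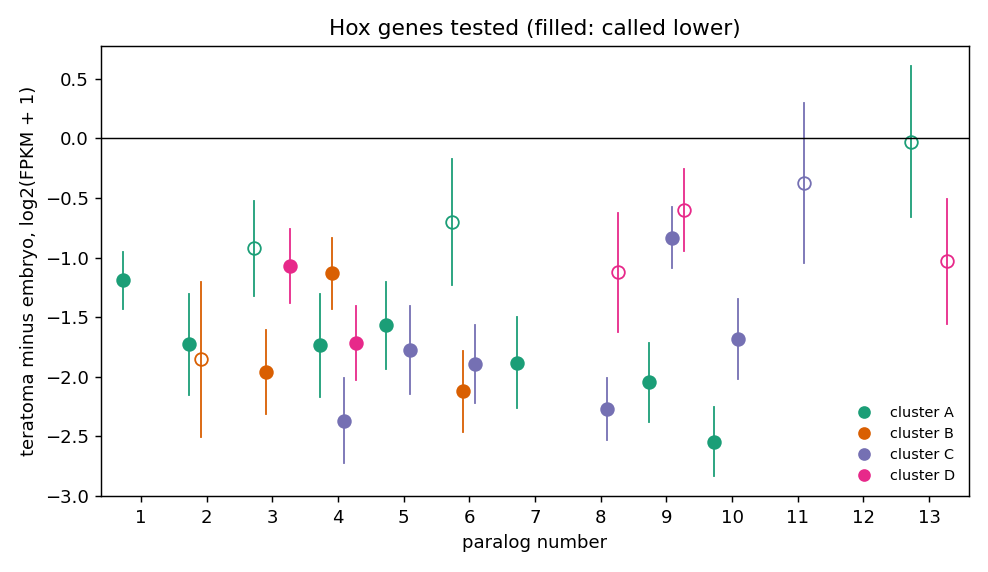
Difference of teratoma minus embryo on log2(FPKM + 1) (vertical axis) for the 26 Hox genes tested, by paralog number from anterior to posterior (horizontal axis) and coloured by cluster, with bars of 1 SE and filled points for the 18 called lower. All 26 points lie at or below 0 in the full fit, and the 8 open points, not called, include 4 of the 8 posterior genes.

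Factors of head and limb position were called in both directions, with 4 of 17 higher (23.5%) and 5 lower (29.4%), against 15.5% and 10.6% over all genes. By role, 3 of 7 head muscle factors were higher and 1 lower, and 1 of 10 limb and migration factors was higher and 4 lower. Tcf21, a factor of pharyngeal and branchial mesoderm, had 8.76, 13.4 and 10.6 FPKM in teratoma and 0.116, 0 and 0 in embryo, a log2 difference of 3.504 ± 0.23 (adjusted p = 1.88e-06). Tbx1, needed for the muscles of the jaw and pharynx (chromosome 16 from 18580979 to 18590671), had 13.8, 9.84 and 11.1 FPKM in teratoma and 2.59, 2.36 and 1.41 in embryo, a log2 difference of 2.02 ± 0.31 (adjusted p = 6.16e-04). Isl1, a marker of the second heart field and of some jaw muscles, had 5.997, 3.45 and 8.09 FPKM in teratoma and 0.290, 2.12 and 1.99 in embryo, a log2 difference of 1.52 ± 0.38 (adjusted p = 0.0116), and an adjusted p of 0.0569 with only the 2 groups in the fit. These 3 factors were higher in each teratoma library, whereas the head muscle factor Pitx3 was lower at 5.40, 9.19 and 6.03 against 14.1, 11.6 and 19.3 FPKM (log2 difference -1.02 ± 0.31, adjusted p = 0.0306). Its call was lost without some libraries (adjusted p 0.0950 without teratoma replicate 1, 0.0870 without teratoma replicate 3, 0.0607 without embryo replicate 1 and 0.102 without embryo replicate 3). Of the limb and dermomyotome factors, Tbx15 had 4.35, 4.14 and 6.59 FPKM in teratoma and 21.1, 23.6 and 26.1 in embryo, a log2 difference of -2.05 ± 0.27 (adjusted p = 2.31e-04). Prrx1 had 14.8, 13.98 and 22.03 FPKM in teratoma and 50.5, 60.2 and 71.1 in embryo, a log2 difference of -1.79 ± 0.23 (adjusted p = 1.84e-04). Both were lower in each teratoma library. Tbx5, a factor of forelimb and heart, was lower at 0.278, 0.239 and 0.1303 against 1.67, 1.17 and 2.23 FPKM (log2 difference -1.13 ± 0.24, adjusted p = 0.00461), and Tbx4, a factor of the hindlimb, was higher at 2.11, 2.91 and 2.33 against 0.947, 0 and 1.11 FPKM (log2 difference 1.10 ± 0.30, adjusted p = 0.0179). The call of Tbx4 was lost without 1 library (adjusted p 0.0664 without teratoma replicate 2) and with only the 2 groups in the fit (adjusted p = 0.0726). The number of lower members was 8 under quantile normalization or without embryo replicate 2 and 3 without teratoma replicate 1. Of the 6 members with a mean of at least 5 FPKM 0 were higher, and 2 members of the list were higher with only the 2 groups in the fit.

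The Notch pathway, in which ligands on one cell activate receptors on its neighbour and keep satellite cells undifferentiated, had 6 of 26 members higher and 4 lower. These shares were 23.1% and 15.4%, against 15.5% and 10.6% over all genes. The receptor gene Notch3 had 71.04, 73.5 and 75.2 FPKM in teratoma and 41.8, 35.7 and 46.6 in embryo, a log2 difference of 0.82 ± 0.17 (adjusted p = 0.00471). The target Heyl had 47.5, 39.997 and 36.4 FPKM in teratoma and 16.8, 17.04 and 19.2 in embryo, a log2 difference of 1.17 ± 0.18 (adjusted p = 6.85e-04). Both were higher in each teratoma library. The target Hes5 was listed at 0 in all 3 teratoma libraries and had 1.71, 16.4 and 2.42 FPKM in embryo (adjusted p = 0.00520). Hey1, another target, was at 27.7, 35.8 and 32.4 against 26.8, 29.5 and 30.3 FPKM and overlapped (log2 difference 0.14 ± 0.25, adjusted p = 0.735). Counts for this list moved with the libraries: 3 were higher without teratoma replicate 1 or embryo replicate 2, and lower members numbered 1 without teratoma replicate 1 and 2 without teratoma replicate 2, teratoma replicate 3 or embryo replicate 2.

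FGF signalling supports proliferation of muscle progenitors, and 3 of 23 members were higher (13%) and 4 lower (17.4%), near the shares of 15.5% and 10.6% over all genes. Fgfr1, the main receptor of activated satellite cells, had 93.5, 78.6 and 72.8 FPKM in teratoma and 35.7, 27.3 and 38.1 in embryo, a log2 difference of 1.26 ± 0.16 (adjusted p = 1.40e-04). Dusp4, a phosphatase that dampens the pathway, had 23.1, 28.5 and 20.8 FPKM in teratoma and 7.74, 11.8 and 10.6 in embryo, a log2 difference of 1.19 ± 0.20 (adjusted p = 0.00129). The ligand genes Fgf10 (1.67, 1.28 and 1.39 against 4.45, 3.24 and 5.38 FPKM, log2 difference -1.11 ± 0.25, adjusted p = 0.00604, adjusted p 0.0574 with a pseudocount of 0.1) and Fgf13 (2.14, 0.637 and 1.801 against 7.44, 3.22 and 6.37 FPKM, log2 difference -1.40 ± 0.32, adjusted p = 0.00793) were lower. Fgfr4, a receptor of muscle progenitors, was at 76.96, 94.3 and 96.6 against 58.0, 92.7 and 42.3 FPKM and overlapped between groups (adjusted p = 0.149, and 0.0182 without embryo replicate 2). The number of higher members was 5 without embryo replicate 3 and under median-ratio scaling, and that of lower members 2 without any 1 of teratoma replicates 1, 2 and 3, embryo replicate 1 or the transplant libraries.

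BMP and TGF-beta ligands restrain muscle differentiation and drive matrix production, and of 48 genes tested 20 were higher and 5 lower, with a median of 0.48. Among the ligands, Tgfb1 had 13.3, 22.01 and 15.3 FPKM in teratoma and 2.69, 3.17 and 3.47 in embryo, a log2 difference of 2.10 ± 0.24 (adjusted p = 7.99e-05). Inhba, which encodes the activin A subunit, had 17.7, 22.9 and 13.3 FPKM in teratoma and 2.13, 0.928 and 1.98 in embryo, a log2 difference of 2.83 ± 0.31 (adjusted p = 5.55e-05). Bmp6 had 11.3, 19.6 and 12.6 FPKM in teratoma and 1.48, 0.610 and 1.86 in embryo, a log2 difference of 2.74 ± 0.32 (adjusted p = 8.49e-05). These 3 ligand genes were higher in each teratoma library, while Bmp7 was lower at 4.32, 2.51 and 1.63 against 10.5, 5.82 and 10.9 FPKM (log2 difference -1.41 ± 0.30, adjusted p = 0.00461). Ltbp2, a latent TGF-beta binding protein of elastic fibres, had 5.62, 8.40 and 9.99 FPKM in teratoma and 0.621, 0.326 and 0.0666 in embryo, a log2 difference of 2.74 ± 0.34 (adjusted p = 1.50e-04). Smad6, an inhibitor that BMP signalling induces, had 4.05, 3.19 and 3.14 FPKM in teratoma and 7.73, 13.3 and 10.05 in embryo, a log2 difference of -1.33 ± 0.33 (adjusted p = 0.0110). The BMP target Id3 was at 125, 149.6 and 162 against 128, 157 and 179 FPKM and did not pass the test (log2 difference -0.08 ± 0.17, adjusted p = 0.761). Without teratoma replicate 2 the higher members numbered 13.

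The Wnt pathway had 13 of 40 members lower (32.5%) and 4 higher (10%), against 10.6% and 15.5% over all genes, with a median of -0.43. Sfrp2, a secreted Wnt modulator, had 28.4, 12.7 and 22.4 FPKM in teratoma and 158, 141 and 201 in embryo, a log2 difference of -2.97 ± 0.41 (adjusted p = 2.99e-04). Fzd2, a Wnt receptor, had 4.03, 7.08 and 7.50 FPKM in teratoma and 26.4, 15.1 and 36.2 in embryo, a log2 difference of -1.85 ± 0.38 (adjusted p = 0.00393). Wnt2b, a ligand, had 0, 0.763 and 0.0472 FPKM in teratoma and 2.99, 2.38 and 2.56 in embryo, a log2 difference of -1.57 ± 0.32 (adjusted p = 0.00361). Rspo1, an agonist, had 0.358, 2.05 and 0.988 FPKM in teratoma and 4.44, 9.20 and 4.597 in embryo, a log2 difference of -1.75 ± 0.40 (adjusted p = 0.00777), and an adjusted p of 0.0504 with a pseudocount of 0.1. All 4 were lower in each teratoma library. Dkk3, a secreted protein of the Dickkopf family, was higher at 13.99, 15.7 and 12.6 against 2.53, 2.22 and 4.49 FPKM (log2 difference 1.92 ± 0.28, adjusted p = 4.50e-04), and so was the receptor gene Fzd5 at 5.38, 8.20 and 6.99 against 1.59, 1.39 and 1.86 FPKM (log2 difference 1.57 ± 0.20, adjusted p = 1.57e-04). With only the 2 groups in the fit 8 members were lower and 2 higher, and 5 of 13 with a mean of at least 5 FPKM were lower.

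Matrix genes were more often higher than lower, as were all genes tested. Of 38 collagen genes 13 were higher (34.2%) and 4 lower (10.5%), against 15.5% and 10.6% over all genes. Of the 12 collagens of basement membranes and microfibrils 9 were higher. Col15a1, a collagen of the muscle basement membrane zone that is also listed among the fibroblast markers, had 211, 244 and 223 FPKM in teratoma and 13.8, 17.7 and 8.18 in embryo, a log2 difference of 4.05 ± 0.22 (adjusted p = 5.07e-07). Col4a5, a network-forming collagen, had 11.5, 12.6 and 9.51 FPKM in teratoma and 1.82, 3.37 and 5.12 in embryo, a log2 difference of 1.52 ± 0.30 (adjusted p = 0.00268). Col5a3, a target of Notch signalling in satellite cells, had 12.9, 17.1 and 21.3 FPKM in teratoma and 3.42, 1.31 and 2.63 in embryo, a log2 difference of 2.41 ± 0.24 (adjusted p = 2.53e-05). The teratoma libraries were above the embryo libraries for all 3 genes. Col1a1, the main chain of fibrillar collagen, overlapped at 876, 1518 and 1804 against 1380.0, 937 and 945 FPKM (log2 difference 0.32 ± 0.30, adjusted p = 0.466), and so did Col3a1 at 859, 1004 and 1156 against 936, 642 and 809.5 FPKM. Col9a2, a cartilage collagen, was lower at 1.65, 2.33 and 2.25 against 6.99, 8.67 and 6.16 FPKM (log2 difference -1.42 ± 0.22, adjusted p = 6.23e-04), as was Col19a1 at 0.272, 0.0255 and 0.0428 against 1.94, 3.06 and 2.03 FPKM (log2 difference -1.58 ± 0.22, adjusted p = 3.73e-04). Lower collagens numbered 2 without teratoma replicate 2, teratoma replicate 3 or embryo replicate 3.

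Laminins and their linkers join the fibre to its basement membrane, and 13 of 21 were higher and 1 lower, with a median of 0.83. Lama2, the alpha chain of muscle laminin whose loss causes congenital muscular dystrophy, had 66.5, 54.9 and 53.1 FPKM in teratoma and 11.1, 16.4 and 10.7 in embryo, a log2 difference of 2.13 ± 0.17 (adjusted p = 5.88e-06). Sgca, which encodes alpha-sarcoglycan of the dystrophin complex, had 15.5, 7.31 and 11.4 FPKM in teratoma and 1.22, 0 and 1.27 in embryo, a log2 difference of 2.80 ± 0.35 (adjusted p = 1.35e-04). Hspg2, which encodes perlecan, had 96.9, 132 and 113 FPKM in teratoma and 38.5, 33.6 and 36.8 in embryo, a log2 difference of 1.61 ± 0.14 (adjusted p = 1.31e-05). Lama5 had 33.8, 26.5 and 21.3 FPKM in teratoma and 10.8, 7.21 and 10.05 in embryo, a log2 difference of 1.44 ± 0.24 (adjusted p = 9.43e-04). Their libraries did not overlap between groups. Of 34 genes of elastic and matricellular matrix, 15 were higher and 3 lower. Eln, which encodes elastin, had 223, 459 and 368 FPKM in teratoma and 40.1, 39.1 and 31.4 in embryo, a log2 difference of 3.16 ± 0.30 (adjusted p = 1.83e-05). Spp1, which encodes osteopontin, had 35.2, 75.6 and 59.0 FPKM in teratoma and 1.36, 1.37 and 4.18 in embryo, a log2 difference of 4.16 ± 0.37 (adjusted p = 1.36e-05). Bgn, which encodes biglycan, had 422, 655 and 535 FPKM in teratoma and 99.8, 82.2 and 89.3 in embryo, a log2 difference of 2.54 ± 0.19 (adjusted p = 5.11e-06), and the microfibril protein gene Mfap4 had 400.1, 413 and 429 FPKM in teratoma and 88.6, 67.9 and 88.5 in embryo, a log2 difference of 2.34 ± 0.28 (adjusted p = 1.08e-04). All 4 were higher in each teratoma library. Fbn2, the fibrillin of fetal microfibrils, was lower at 41.6, 39.4 and 44.8 against 84.9, 78.6 and 88.6 FPKM (log2 difference -0.99 ± 0.25, adjusted p = 0.0133), and Fn1, fibronectin, overlapped at 155, 270.5 and 222 against 225, 242 and 272 FPKM.

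Genes of MHC class I presentation and of the interferon response were higher in 29 of 32 tested members and lower in 0, with a median of 2.10. Of 33 listed, 30 reached 1 FPKM in all 3 teratoma libraries and 10 in all 3 embryo libraries. Members could thus be tested through teratoma alone. H2-K1 and H2-D1 encode the classical class I heavy chains of the mouse, and related class I genes can share reads. H2-D1 had 31.4, 40.7 and 40.9 FPKM in teratoma and 0.667, 1.08 and 3.43 in embryo, a log2 difference of 3.95 ± 0.30 (adjusted p = 4.40e-06). H2-K1 had 24.4, 29.9 and 17.9 FPKM in teratoma and 1.52, 0 and 0.667 in embryo, a log2 difference of 3.93 ± 0.28 (adjusted p = 3.86e-06). B2m, the light chain common to class I molecules, had 189, 199 and 195 FPKM in teratoma and 69.8, 82.0 and 51.3 in embryo, a log2 difference of 1.53 ± 0.19 (adjusted p = 1.11e-04). Tapbp, which loads peptides, had 23.1, 21.6 and 18.8 FPKM in teratoma and 3.44, 1.20 and 4.03 in embryo, a log2 difference of 2.59 ± 0.28 (adjusted p = 4.83e-05). No embryo library reached the lowest teratoma library for any of the 4 genes. Among interferon-induced genes, Isg15, a ubiquitin-like modifier, had 15.7, 31.8 and 17.4 FPKM in teratoma and 0, 0.191 and 0 in embryo, a log2 difference of 4.35 ± 0.32 (adjusted p = 4.05e-06). Ifitm3, which blocks viral entry, had 184, 213 and 189 FPKM in teratoma and 19.7, 9.60 and 24.5 in embryo, a log2 difference of 3.46 ± 0.25 (adjusted p = 4.00e-06). Gbp3, a guanylate-binding protein, had 17.2, 16.2 and 13.5 FPKM in teratoma and 0.0516, 0 and 0 in embryo, a log2 difference of 4.02 ± 0.22 (adjusted p = 5.91e-07). Gbp2 had 21.4, 17.9 and 9.65 FPKM in teratoma and 0.292, 0.0287 and 0.119 in embryo, a log2 difference of 3.86 ± 0.32 (adjusted p = 9.64e-06). These 4 genes were again higher in each teratoma library. Irf9, a subunit of the factor that binds interferon-stimulated promoters, had 14.9, 11.4 and 12.96 FPKM in teratoma and 2.84, 3.43 and 4.79 in embryo, a log2 difference of 1.60 ± 0.21 (adjusted p = 1.80e-04). Ifitm2 was at 82.4, 68.4 and 83.2 against 64.3, 65.7 and 85.5 FPKM and did not pass the test. Among genes with a mean of at least 5 FPKM 17 of 19 were higher.

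The interferon-stimulated response element was searched as GAAA, then any 2 bases, then GAAA, on both strands of the 250 bases before the RefSeq start. Of 28 list members tested and having a window, 11 held a match (39.3%), 9 of 17 among the interferon response genes and 2 of 11 among the class I and peptide loading genes, against 3.04% of all tested genes with a window. The share describes the listed genes, not the difference between teratoma and embryo. Windows of Isg15 (chr4:156200819-156201068, minus strand) and of Ifit1 (chr19:34640639-34640888, plus strand) are shown because these genes were at or near 0 in the embryo libraries and held more than 1 match. Matches are in capitals: 3 that overlap in Isg15, 78 to 57 bases before the start, and 2 in Ifit1, 104 to 95 and 85 to 76 bases before the start. Ifit1, which binds foreign RNA, had 5.19, 9.28 and 6.29 FPKM in teratoma and 0.0162, 0 and 0 in embryo, a log2 difference of 2.94 ± 0.26 (adjusted p = 1.36e-05).
Isg15: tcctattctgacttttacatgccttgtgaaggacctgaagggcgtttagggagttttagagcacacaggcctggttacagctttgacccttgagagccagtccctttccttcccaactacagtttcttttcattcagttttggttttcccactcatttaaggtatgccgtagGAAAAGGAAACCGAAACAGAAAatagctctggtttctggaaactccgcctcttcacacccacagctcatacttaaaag
Ifit1: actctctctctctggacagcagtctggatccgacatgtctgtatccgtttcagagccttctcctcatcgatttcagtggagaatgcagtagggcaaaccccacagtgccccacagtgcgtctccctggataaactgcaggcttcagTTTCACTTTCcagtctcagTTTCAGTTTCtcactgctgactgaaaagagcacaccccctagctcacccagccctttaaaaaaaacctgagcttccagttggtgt

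Leukocyte markers, like the class I and interferon genes, were called only on the higher side. Of 11 tested, 9 were higher and 0 lower, and the list summed to 72.4, 62.1 and 189.6 FPKM in the teratoma libraries, with the highest in teratoma replicate 3, and to 4.88, 13.8 and 7.54 in embryo. Of 12 listed, 9 reached 1 FPKM in all 3 teratoma libraries and 0 in all 3 embryo libraries. The filter could thus admit members through teratoma alone, which favours a count of higher genes. Lyz2, lysozyme of macrophages, had 31.8, 28.1 and 77.9 FPKM in teratoma and 0.228, 5.04 and 1.28 in embryo, a log2 difference of 4.04 ± 0.65 (adjusted p = 8.36e-04). C1qa, complement of macrophages, had 10.4, 5.11 and 10.4 FPKM in teratoma and was listed at 0 in embryo (adjusted p = 7.50e-05). The defining leukocyte antigen gene Ptprc stayed at or below 1.44 FPKM. The class I and interferon list summed to 768, 855 and 782 FPKM in the teratoma libraries and was not highest in teratoma replicate 3. The part of other cells in the class I and interferon differences was not tested. Without teratoma replicate 3, 5 leukocyte markers were called, and 4 with only the 2 groups in the fit.

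Immediate early genes, which cells switch on within minutes of stimulation or of tissue dissociation, were higher in 23 of 28 and lower in 0, with a median of 1.27. Zfp36, an RNA-binding protein that destabilizes cytokine messages, had 626, 782 and 734 FPKM in teratoma and 135, 77.1 and 142 in embryo, a log2 difference of 2.63 ± 0.24 (adjusted p = 1.54e-05). Myc, a transcription factor of cell growth, had 99.9, 92.2 and 85.6 FPKM in teratoma and 13.7, 13.2 and 17.9 in embryo, a log2 difference of 2.56 ± 0.16 (adjusted p = 1.59e-06). Fosb, an AP-1 subunit, had 220.3, 382 and 349 FPKM in teratoma and 57.9, 47.7 and 81.7 in embryo, a log2 difference of 2.32 ± 0.23 (adjusted p = 2.88e-05). Ier3 had 119.9, 144 and 123 FPKM in teratoma and 27.8, 33.4 and 32.9 in embryo, a log2 difference of 2.01 ± 0.16 (adjusted p = 7.22e-06). Teratoma libraries were above embryo libraries for all 4 genes, and every embryo library also held each of them. Fosl1, another AP-1 subunit, had 15.04, 9.74 and 8.70 FPKM in teratoma and was listed at 0 in embryo (adjusted p = 1.66e-05). Nr4a1, a nuclear receptor gene induced by dissociation, was at 159, 305 and 264 against 177, 156 and 221 FPKM and overlapped (adjusted p = 0.265, and 0.0222 without teratoma replicate 1). Tissue type and dissociation cannot be told apart from the groups here, since each group was dissociated from its own tissue.

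Heat shock and chaperone genes were called in both directions, with 7 of 23 higher (30.4%) and 5 lower (21.7%), against 15.5% and 10.6% over all genes. Bag3, a co-chaperone of muscle, had 174, 152 and 138 FPKM in teratoma and 60.4, 63.8 and 51.9 in embryo, a log2 difference of 1.38 ± 0.15 (adjusted p = 4.42e-05). Pdia4, a chaperone of the endoplasmic reticulum, had 148, 210.0 and 175 FPKM in teratoma and 75.3, 74.0 and 88.1 in embryo, a log2 difference of 1.15 ± 0.18 (adjusted p = 6.16e-04). Ddit3, a factor of the stress response of that organelle, had 14.3, 17.7 and 14.97 FPKM in teratoma and 6.19, 6.03 and 7.42 in embryo, a log2 difference of 1.14 ± 0.18 (adjusted p = 6.25e-04). The mitochondrial chaperonin gene Hspd1 was instead lower, at 144, 81.7 and 91.7 against 282, 286 and 179.9 FPKM (log2 difference -1.24 ± 0.24, adjusted p = 0.00247). Hspa8, the constitutive heat shock protein of the cytosol, was at 1008, 929 and 868 against 1022, 955 and 1078 FPKM and did not pass the test. The lower count was 3 without teratoma replicate 2 and 2 without embryo replicate 1.

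Metallothioneins bind zinc and copper, and the genes are induced by metals, glucocorticoids and oxidative stress. Mt1 (chromosome 8 from 94179082 to 94180327) had 292, 345 and 324 FPKM in teratoma and 11.2, 0 and 2.496 in embryo, a log2 difference of 6.52 ± 0.63 (adjusted p = 2.15e-05). Mt2 (chromosome 8 from 94172664 to 94173568) had 244, 387 and 298 FPKM in teratoma and 1.55, 4.58 and 2.998 in embryo, a log2 difference of 6.31 ± 0.27 (adjusted p = 8.34e-08). Mt3, the form of brain, had 23.7, 26.6 and 7.88 FPKM in teratoma and was listed at 0 in embryo (adjusted p = 3.15e-04). The embryo libraries held at most 11.2 FPKM of any of the 3 genes. In the other groups Mt1 had 1015, 936 and 1096 FPKM in the transplant libraries and 509, 564 and 334 in the adult libraries, and Mt2 had 797, 709 and 862 FPKM in the transplant libraries and 1197, 1093 and 761 in the adult libraries, all of them above the embryo libraries. Of 13 zinc transporter genes 4 were higher and 1 lower. The importer gene Slc39a14, a target of interleukin 6, was higher at 9.37, 13.9 and 10.1 against 3.98, 5.90 and 4.34 FPKM (log2 difference 1.08 ± 0.22, adjusted p = 0.00363), and Slc39a10 was lower at 5.62, 4.49 and 5.02 against 12.9, 19.6 and 19.1 FPKM (log2 difference -1.57 ± 0.22, adjusted p = 3.15e-04).

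The core of the metal response element, TGCGCNC or TGCACNC with N for any base, was searched on both strands of the same promoter windows. A match was frequent everywhere, in 35.1% of tested genes and 23.8% of all genes with a window, and in 6 of 15 genes of the metallothionein and zinc list. The window of Mt2 (chr8:94172368-94172617, plus strand) is shown because it held 3 matches, in capitals, and that of Mt1 (chr8:94178839-94179088, plus strand) held 1.
Mt2: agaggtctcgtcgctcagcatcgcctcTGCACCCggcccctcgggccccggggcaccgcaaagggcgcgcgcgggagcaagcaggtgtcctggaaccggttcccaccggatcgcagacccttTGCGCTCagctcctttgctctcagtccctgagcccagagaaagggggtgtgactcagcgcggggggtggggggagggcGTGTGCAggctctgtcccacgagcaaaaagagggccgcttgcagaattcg

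Of 79 nuclear genes of oxidative phosphorylation 2 were higher (2.53%) and 7 lower (8.86%), both below the shares over all genes (15.5% and 10.6%), with a median of -0.32. Cox6a2, the muscle isoform of a cytochrome oxidase subunit, had 4.80, 7.16 and 6.94 FPKM in teratoma and was listed at 0 in embryo (adjusted p = 2.51e-05). Ndufa12 of complex I had 51.1, 45.5 and 41.01 FPKM in teratoma and 82.1, 98.3 and 74.0 in embryo, a log2 difference of -0.87 ± 0.17 (adjusted p = 0.00331). Atp5j2 of the ATP synthase had 67.4, 73.4 and 70.5 FPKM in teratoma and 132, 138 and 128 in embryo, a log2 difference of -0.91 ± 0.21 (adjusted p = 0.00823), both lower in each teratoma library. The lower count ranged from 2 without teratoma replicate 3 to 11 without adult replicate 3, with 4 without embryo replicate 1 and 3 without embryo replicate 2, and was 12 under quantile normalization. In glucose metabolism 8 of 26 genes were higher (30.8%) and 3 lower (11.5%, near the 10.6% over all genes). Hk2, the hexokinase of muscle, had 36.8, 52.8 and 38.2 FPKM in teratoma and 7.89, 5.34 and 9.43 in embryo, a log2 difference of 2.36 ± 0.27 (adjusted p = 6.93e-05). Pfkfb3, an activator of glycolysis, had 28.1, 30.1 and 20.96 FPKM in teratoma and 8.24, 6.75 and 11.03 in embryo, a log2 difference of 1.51 ± 0.22 (adjusted p = 3.90e-04). Pdk4, which closes the entry of pyruvate into mitochondria, had 8.44, 11.4 and 9.35 FPKM in teratoma and 1.35, 1.87 and 2.84 in embryo, a log2 difference of 1.85 ± 0.27 (adjusted p = 4.38e-04). The 3 genes were higher in each teratoma library. The 3 lower genes depended on single libraries, with 0 without teratoma replicate 3 and 1 without teratoma replicate 1, embryo replicate 1 or embryo replicate 2.

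Purine synthesis genes were lower in 7 of 17 and higher in 1. Hprt, the X-linked salvage enzyme (chromosome X from 52988137 to 53021659), had 0.579, 1.69 and 1.45 FPKM in teratoma and 23.4, 43.8 and 28.9 in embryo, a log2 difference of -3.87 ± 0.38 (adjusted p = 2.51e-05). Every teratoma library was under 2 FPKM and every embryo library above 20. In the other groups it had 2.02, 0.323 and 0.152 FPKM in the transplant libraries and 57.3, 43.5 and 32.7 in the adult libraries. Of 12 de novo synthesis genes 6 were lower and 0 higher, with Gart at 9.72, 7.47 and 8.75 against 21.4, 30.5 and 24.3 FPKM (log2 difference -1.44 ± 0.25, adjusted p = 0.00136), Paics at 30.6, 23.2 and 36.5 against 60.6, 65.0 and 59.9 FPKM (log2 difference -1.04 ± 0.22, adjusted p = 0.00461) and Atic at 17.4, 18.01 and 19.1 against 28.9, 34.8 and 41.3 FPKM (log2 difference -0.89 ± 0.19, adjusted p = 0.00543). The salvage gene Pnp was higher at 17.4, 20.8 and 14.4 against 7.16, 8.75 and 7.22 FPKM (log2 difference 1.08 ± 0.18, adjusted p = 0.00124). S phase genes moved in the same direction as these de novo genes, and their part in this difference was not tested. As checks of origin, Ddx3y, a Y-linked gene, had 16.7, 13.1 and 11.7 FPKM in teratoma and 15.5, 0 and 13.5 in embryo. The others gave Eif2s3y 8.42, 7.72 and 4.71 FPKM in teratoma and 5.33, 0 and 10.4 in embryo, Kdm5d 0.131, 0.378 and 0.175 FPKM in teratoma and 2.47, 0 and 2.86 in embryo, and Uty 2.33, 2.10 and 2.77 FPKM in teratoma and 3.59, 0 and 3.11 in embryo. None of these 4 genes passed the test in the full fit, and Kdm5d passed it once embryo replicate 2 was left out (adjusted p 0.00175 without embryo replicate 2). Xist, the RNA of the inactive X chromosome, had 1.81, 1.90 and 2.497 FPKM in teratoma and was listed at 0 in embryo. Y-linked transcripts were thus present in all 3 teratoma libraries and in 2 embryo libraries, and listed at 0 in embryo replicate 2.

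DNA methylation and Polycomb genes were higher in 3 of 20 (15%) and lower in 5 (25%), against 15.5% and 10.6% over all genes. Dnmt1, the maintenance methyltransferase, had 19.5, 15.1 and 17.2 FPKM in teratoma and 33.8, 35.5 and 40.5 in embryo, a log2 difference of -1.04 ± 0.18 (adjusted p = 0.00150), and its partner Uhrf1 had 19.9, 15.5 and 14.51 FPKM in teratoma and 58.4, 55.5 and 49.7 in embryo, a log2 difference of -1.66 ± 0.26 (adjusted p = 6.40e-04). The Polycomb reader genes Cbx2 (0.983, 1.18 and 1.53 against 5.62, 5.47 and 5.23 FPKM, log2 difference -1.54 ± 0.27, adjusted p = 0.00136) and Cbx8 (0.785, 0.669 and 1.49 against 4.44, 3.67 and 7.27 FPKM, log2 difference -1.61 ± 0.31, adjusted p = 0.00266) were lower, and the demethylase gene Tet3 was higher at 30.3, 22.3 and 23.2 against 11.2, 10.9 and 12.2 FPKM (log2 difference 1.07 ± 0.16, adjusted p = 5.33e-04). Ezh2, the Polycomb methyltransferase, was at 17.6, 13.7 and 16.5 against 19.6, 21.9 and 22.3 FPKM and did not pass the test. With genes restricted to a mean of 5 FPKM 3 members were lower, and 1 member was higher without embryo replicate 1 or with only the 2 groups in the fit. Of 18 pluripotency genes, 3 reached the level for testing and 0 of these passed the test. Ribosomal protein genes, a reference list, were higher in 1 of 82 and lower in 0 with a median of -0.11, though 7 were lower under quantile normalization.

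**Figure D4:**
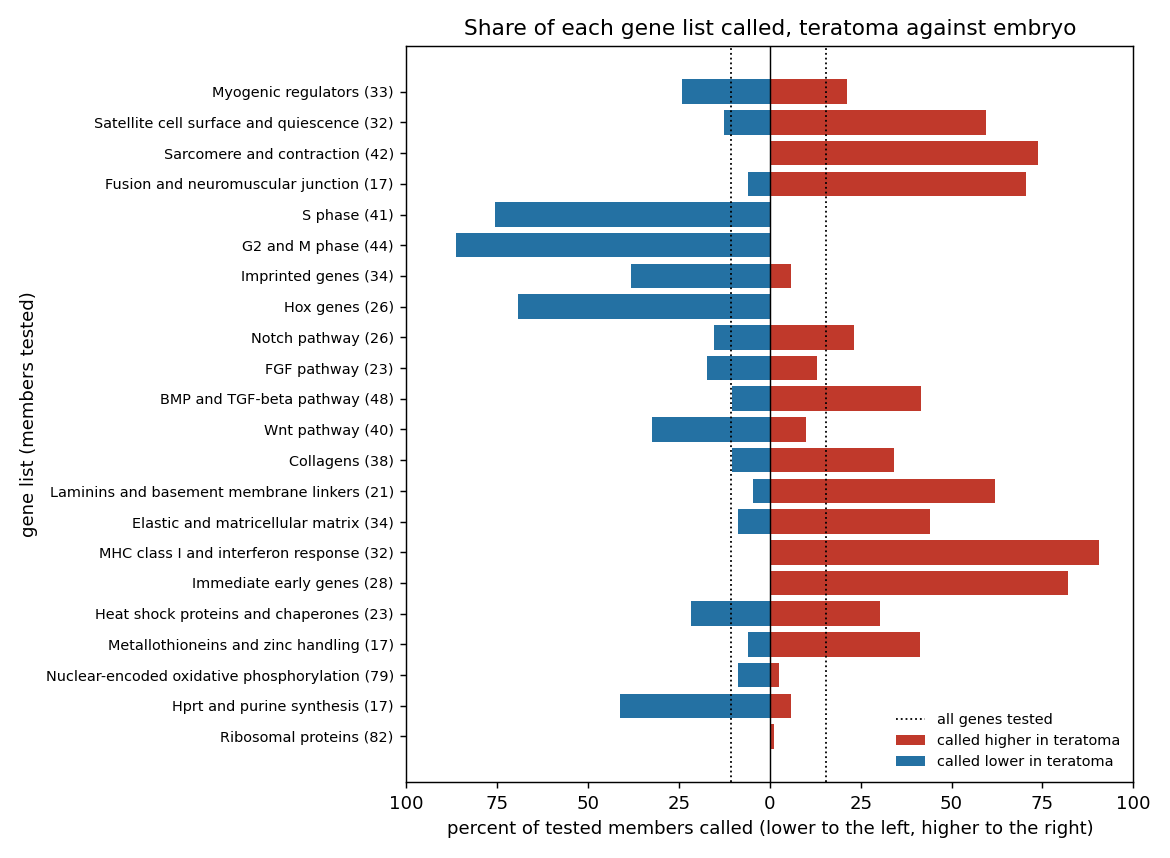
Percent of the tested members of 22 gene lists called higher (red, to the right) or lower (blue, to the left) in teratoma (horizontal axis), with the number tested after each list name. Dotted lines mark 15.5% higher and 10.6% lower among all genes, and the S phase, G2 and M phase and Hox bars lie only on the lower side, while the sarcomere, immediate early and class I and interferon bars lie only on the higher side.

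Markers of other cell types showed which transcripts besides those of muscle came with each group, and their part in the differences above was not tested. Epithelial markers were higher in 9 of 12 and lower in 0, with summed levels of 302, 441 and 136 FPKM in teratoma and 8.03, 18.02 and 62.7 in embryo. Of 14 listed, 11 reached 1 FPKM in all 3 teratoma libraries and 3 in all 3 embryo libraries. Krt8, a simple epithelial keratin, had 41.1, 70.8 and 25.6 FPKM in teratoma and 1.06, 3.62 and 1.48 in embryo, a log2 difference of 3.91 ± 0.37 (adjusted p = 1.83e-05). Cldn4, a tight junction protein, had 64.7, 85.7 and 15.8 FPKM in teratoma and 0.497, 2.92 and 6.77 in embryo, a log2 difference of 3.68 ± 0.61 (adjusted p = 0.00101). Teratoma replicate 2 had the highest and teratoma replicate 3 the lowest value for both. Gut and liver endoderm markers were higher in 4 of 6 tested, of 19 listed, and lower in 0, and summed to 447, 414 and 144.6 FPKM in teratoma and 2.43, 19.4 and 4.95 in embryo. Of the listed endoderm markers, 6 reached 1 FPKM in all 3 teratoma libraries and 0 in all 3 embryo libraries. Members of both lists could thus be tested through the teratoma libraries alone, which by itself favours counts of higher genes. Ttr, the transthyretin of liver and yolk sac, had 216, 204 and 91.0 FPKM in teratoma and was listed at 0 in embryo (adjusted p = 5.14e-08). Reg3g, an intestinal lectin, had 203, 159 and 26.5 FPKM in teratoma and 0, 0.252 and 0 in embryo, a log2 difference of 6.48 ± 0.56 (adjusted p = 1.16e-05). Foxa1, the endoderm factor, had 7.23, 7.33 and 3.25 FPKM in teratoma and 0.0524, 0.0893 and 0 in embryo, a log2 difference of 2.66 ± 0.31 (adjusted p = 8.02e-05). Ttr, Reg3g and Foxa1 were lowest in teratoma replicate 3, as Krt8 and Cldn4 were. Alb, albumin, was at 1.35, 2.32 and 1.40 against 0.0521, 0 and 0 FPKM. Gfap, a filament of glia that some mesenchymal cells also express, had 47.4, 56.9 and 26.6 FPKM in teratoma and was listed at 0 in embryo (adjusted p = 3.45e-07). It was the only higher gene of 6 neural markers tested. Of these 1 was lower and 4 were not called, with a median of -0.50.

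Connective tissue and vessel markers gave both directions. Of 16 fibroblast markers 7 were higher (43.8%) and 4 lower (25%). Ly6a, which encodes Sca-1, had 13.99, 22.6 and 15.5 FPKM in teratoma and 1.02, 0 and 0 in embryo, a log2 difference of 3.83 ± 0.35 (adjusted p = 1.49e-05). Pi16 had 9.91, 25.8 and 12.6 FPKM in teratoma and 3.16, 1.42 and 0.644 in embryo, a log2 difference of 2.64 ± 0.38 (adjusted p = 4.06e-04). Osr1, a factor of fetal fibro-adipogenic progenitors, had 1.90, 3.96 and 2.55 FPKM in teratoma and 22.3, 22.5 and 29.3 in embryo, a log2 difference of -2.78 ± 0.25 (adjusted p = 1.50e-05). Cd248, endosialin, had 26.1, 34.7 and 46.6 FPKM in teratoma and 142, 107 and 131 in embryo, a log2 difference of -1.82 ± 0.25 (adjusted p = 2.82e-04). Ly6a and Pi16 were higher, and Osr1 and Cd248 lower, in each teratoma library. Dcn, which encodes decorin and is abundant in fibroblasts, was at 156, 189 and 202 against 169.8, 116 and 131 FPKM and overlapped. Of 10 tendon markers 5 were higher (50%) and 1 lower (10%). Chodl was higher at 42.04, 34.3 and 32.4 against 5.66, 6.87 and 2.37 FPKM (log2 difference 2.72 ± 0.28, adjusted p = 3.09e-05), and so was Egr1, also listed among the immediate early genes (log2 difference 1.14 ± 0.17, adjusted p = 6.20e-04). Kera was lower (log2 difference -1.19 ± 0.32, adjusted p = 0.0182), and the lower count was 0 without teratoma replicate 1. Scx and Tnmd did not pass the test (log2 difference -0.05 ± 0.68 and -0.74 ± 0.51, adjusted p = 0.967 and 0.322). Of 10 mural cell markers 5 were higher (50%) and 1 lower (10%), among them Rgs5 at 26.8, 20.04 and 30.9 against 6.79, 9.02 and 8.45 FPKM (log2 difference 1.55 ± 0.26, adjusted p = 0.00106) and Myh11 at 3.97, 5.77 and 8.68 against 0.633, 1.18 and 0.900 FPKM (log2 difference 1.86 ± 0.28, adjusted p = 6.14e-04). Of 9 cartilage and bone markers 1 was higher (11.1%, against 15.5% over all genes) and 0 lower, with a median of -0.15. The higher one was Sox9, a cartilage factor also made by other cells, at 57.2, 68.7 and 48.7 against 9.52, 6.94 and 14.7 FPKM (log2 difference 2.42 ± 0.23, adjusted p = 1.83e-05), while Col2a1, the main cartilage collagen, was at 30.1, 14.2 and 38.6 against 32.1, 44.8 and 58.3 FPKM and did not pass the test (log2 difference -0.76 ± 0.34, adjusted p = 0.120). Of 11 endothelial markers 1 was higher, Cdh5 at 20.98, 17.8 and 17.3 against 4.44, 10.4 and 6.53 FPKM (log2 difference 1.34 ± 0.26, adjusted p = 0.00262), and 1 was lower. Both endothelial shares were 9.09%, against 15.5% higher and 10.6% lower over all genes. Of the same markers 5 were higher without embryo replicate 2. Schwann and neural crest markers were lower in 3 of 9 and higher in 1. Sox10 was lower at 0.489, 0.844 and 0.106 against 2.49, 2.01 and 5.05 FPKM (log2 difference -1.46 ± 0.31, adjusted p = 0.00444), as was Foxd3 at 0, 0 and 1.02 against 2.22, 5.47 and 4.53 FPKM (log2 difference -1.94 ± 0.39, adjusted p = 0.00329), while Pmel, a pigment cell protein, was higher at 1.58, 1.73 and 1.18 against 0, 0.651 and 0 FPKM (log2 difference 1.07 ± 0.24, adjusted p = 0.00684), though not under quantile normalization (adjusted p = 0.125).

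Of 9 erythroid genes tested 4 were lower and 0 higher. The erythroid list summed to 73.5, 35.3 and 76.3 FPKM in the teratoma libraries and to 400.1, 1054 and 2111 in the embryo libraries. Hbb-y, the beta globin of the embryo, had 5.17, 1.49 and 0.896 FPKM in teratoma and 116, 465 and 1188 in embryo, a log2 difference of -7.03 ± 0.66 (adjusted p = 1.88e-05). Hba-x, the alpha-like globin of primitive red cells, had 12.8, 0 and 0 FPKM in teratoma and 39.6, 178 and 453 in embryo, a log2 difference of -5.96 ± 0.95 (adjusted p = 7.89e-04). Hbb-b2 had 3.11, 3.36 and 16.3 FPKM in teratoma and 37.9, 89.4 and 94.1 in embryo, a log2 difference of -3.36 ± 0.62 (adjusted p = 0.00205). Hba-a2 had 14.1, 4.001 and 0 FPKM in teratoma and 134, 284 and 50.2 in embryo, a log2 difference of -4.89 ± 0.96 (adjusted p = 0.00287). Embryo libraries were above teratoma libraries for all 4 globins, with a wide spread among the embryo libraries. Hba-a2 has a near-identical copy with which it can share reads, so its own value is uncertain.

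Transplant and adult libraries share no sample with the 6 compared here, and 5612 of 12699 genes (44.2%) differed between those 2 groups. They are given here for a few lists and genes described above. For MHC class I and interferon genes the sums were 768, 855 and 782 FPKM in teratoma, 208, 199 and 232 in embryo, 918, 928 and 879 in transplant and 593, 608 and 501 in adult. For the sarcomere list they were 510.1, 714 and 651 in teratoma, 312, 368 and 363 in embryo, 405, 441 and 507 in transplant and 466, 527 and 473 in adult. The embryo libraries had the lowest sum in both lists. Epithelial markers summed to 3.66, 11.5 and 0.903 FPKM in transplant and 1.56, 2.14 and 4.17 in adult, below every teratoma library. Tbx1 had 2.06, 1.35 and 2.42 FPKM in the transplant libraries and 4.44, 1.62 and 1.803 in the adult libraries. Hoxa10 had 2.07, 1.58 and 0.769 FPKM in the transplant libraries and 0.928, 0.805 and 0.794 in the adult libraries, and Hoxc10, a posterior gene, had 0.769, 0.706 and 0.375 FPKM in the transplant libraries and 4.07, 5.62 and 5.92 in the adult libraries, against 0.0549, 0.293 and 1.86 in teratoma and 4.47, 3.80 and 3.89 in embryo.

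**Figure D5:**
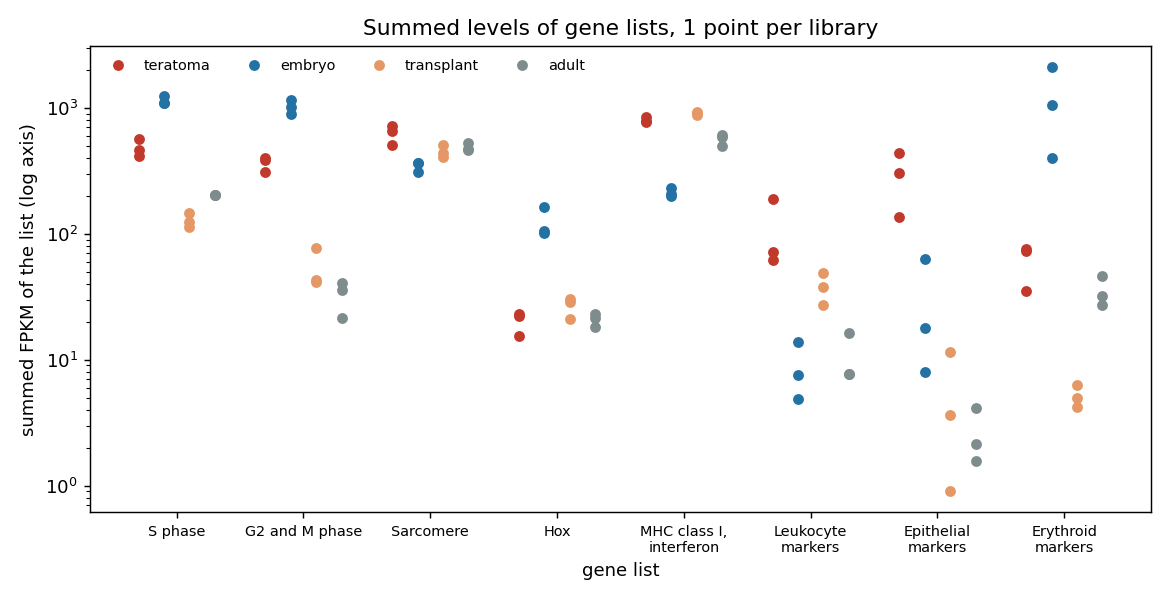
Summed FPKM (vertical log axis) of the genes in 8 lists (horizontal axis), 1 point per library and 3 libraries in each of the teratoma, embryo, transplant and adult groups. Teratoma points lie between embryo and adult for the S phase and G2 and M phase lists, below embryo for the Hox list, and above all other groups for leukocyte and epithelial markers.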

How the data were processed

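Expression in 12 libraries was deposited by the authors as 1 table of FPKM values. Per the labels' protocols, RNA from sorted cells was purified with DNase I treatment and made into strand-specific total RNA libraries with a low-input SMARTer kit. Per the submitters' processing notes, CASAVA 1.8.2, TopHat (version written as 0.7), Cufflinks 2.2.1.0 and Partek were used with the mm10 build. FPKM depends on all mapped fragments, small and ribosomal RNA included, and holds no read counts, so depth and counting error are unknown. The 23746 entries were summed by symbol, 702 of them repeating 240 symbols, which left 23284. Genes with FPKM of 1 or more in at least 3 libraries were tested with limma 3.58.1 in R 4.3.3 on log2(FPKM + 1), in 1 model over the 4 groups with a trended variance and 8 residual degrees of freedom, with Benjamini-Hochberg adjustment over all genes tested. Adjusted p-values in the text are limma's, with the call set at 0.05.

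Genes named were drawn from a rule: all myogenic regulators and sort antigens, the 15 largest changes in each direction among called genes with separate libraries and a higher mean of at least 5 FPKM, up to 5 called members per direction and 3 uncalled members of each list, members of small lists, and the genes used as checks of origin. Some genes that the rule names are not reported here. Members and lists were chosen with earlier results of these data known. Promoter windows were read from RefSeq sequences (GRCm38.p6) and gene positions from GENCODE M21. Alternatives tried were other pseudocounts, filters, scalings, weights, groups in the fit and call rules, a replicate block, and each library left out. The script was tested on simulated data.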

Additional observations from a re-analysis of the deposited data

How the results depend on the processing

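Among the 12699 genes, leaving out each of the 12 libraries in turn gave 2282 to 3196 called, 1469 to 1997 higher and 813 to 1289 lower genes, the last falling to 813 without teratoma replicate 2. Genes with a mean of at least 5 FPKM gave 2084 called, 1268 higher and 816 lower, from fewer genes tested. With only the 2 groups in the fit 877 were lower, and with a log2 change of at least 1 required 776 were. Same-numbered libraries did not deviate together (r = -0.007, -0.0308 and 0.0687), and a replicate block gave 3009 calls. Of 206 called genes named in the text and checked, 188 kept call and direction in every alternative run, 21 or 22 for each gene, and 0 changed sign. Many of them were named for a large called change, which by itself favours such stability. The call rule with a log2 change of at least 1 was not among these runs. Called genes with smaller differences, such as Nfib and Igf2r, do not meet that rule. Egr1, Kera, Scx and Tnmd were not part of this check. Of 39 named genes not called and checked in the same way, 10 changed sign, and the cause was not tested. Their log2 differences were Dach1 -0.0917, Nfia -0.0349, Peg10 -0.0542 (quantile normalization); Dach1 -0.0158, Nfia -0.0334 (small and ribosomal RNA left out and rescaled); Ddx3y -0.077, Eif2s3y -0.13 (isolated zeros as missing); Eya2 0.25, Id3 0.0332, Meg3 -0.029, Uty -0.0987 (library quality weights). Over the leave-one-out fits, those that changed sign ranged as Bhlhe41 -0.11 to 0.51, Dach1 -0.37 to 0.48, Ddx3y -0.077 to 1.95, Eif2s3y -0.13 to 1.63, Eya2 -0.44 to 0.0894, Id3 -0.21 to 0.0288, Meg3 -0.13 to 0.16, Nfia -0.0521 to 0.0432, Peg10 -0.0902 to 0.20, Uty -0.36 to 0.74. Values near 1 FPKM, such as those of the Hox genes, limit what the FPKM scale can resolve.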
